A study of Mus musculus with 6 samples.

Results

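Smooth muscle and actomyosin contractile genes were followed in mouse embryonic fibroblasts at day 8 of a reprogramming experiment. The set holds 35 genes, picked by name from the array annotation, out of 27617 gene names, and 65 of the 41174 probes of the array carry them. It takes in the muscle actins, calponins and transgelins, tropomyosins and caldesmon, the chains and the kinase of contractile myosin, cross-linkers of stress fibres, filament proteins of differentiated smooth muscle, the troponin T genes, and the transcription factor SRF with its partner myocardin. The brightest probe of each gene stands for it, and 34 of the 35 genes were well above background on all 6 arrays. The exception was Tnnt3, whose brightest probe was well above background on the 3 arrays of replicate 2 and on none of the 3 of replicate 1.

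All cultures were fibroblasts that carried the virus mix abbreviated SKO and had spent 6 days in a serum medium with lif after infection. They fall into 3 groups of 2 one-colour arrays each. The first received Gadd45a, a stress-response gene, in addition. The second received G39A, labelled as a negative mutant of Gadd45a, and the third received Flag, the control. The labels do not spell out SKO, and they do not state whether the replicates are separate cultures. The p-values therefore cover array-to-array spread, which may be technical. These are whole cultures, in which fewer cells of a type and less RNA per cell cannot be told apart.

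The 2 replicates of each group stood far apart. The replicate 2 arrays lay on slide 3 and the replicate 1 arrays on slides 1 and 2, so replicate number and slide cannot be told apart. Within replicate 1 the Flag and Gadd45a arrays lay on slide 1 and the G39A array on slide 2. The labels do not say what the replicate number marks. Between 57.0% and 62.9% of the spots of an array were well above background and none was saturated. Signals below are processed signals scaled to a common 75th percentile over the 6 arrays, and single genes are compared within a probe. Only the marker sums add signals over probes, and the share of a gene in them depends on its probe. Gadd45a itself had 2061 and 540.3 on the Gadd45a arrays of replicates 2 and 1. It had 2269 and 1210.3 on the G39A arrays, and 2378 and 1013 on the Flag arrays. Within each replicate number the array labelled Gadd45a was thus the lowest. The gene has 1 probe here and the labels do not give the construct, so whether the probe detects it is not known. Pou5f1, which encodes the pluripotency factor Oct4, had 4.65, 4.65 and 3.68 on the Gadd45a, G39A and Flag arrays labelled replicate 2, against 4971, 5522 and 3835 on those labelled replicate 1. It was not well above background on any array of replicate 2 and was at least 228-fold brighter in replicate 1.

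Smooth muscle contracts when myosin slides along actin filaments, and fibroblasts assemble closely related filaments into stress fibres. Myosin light chain kinase switches this myosin on by phosphorylating its regulatory light chain, while calponin, caldesmon and tropomyosin lie along the actin filament and govern access to it. Many of these genes share a DNA element, the CArG box, which the serum response factor SRF binds together with the cofactors myocardin or MRTF. MRTF is held in the cytoplasm by unpolymerised actin. Fibroblasts lose much of this contractile programme when they turn into pluripotent cells, which are epithelial in shape.

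Because the CArG box is the element through which SRF reaches these genes, promoters were searched for it, in the 250 bases before each gene start. The letters are palindromic, so that a search of 1 strand covers both. Of the 35 genes, 30 had a promoter in the RefSeq table (GRCm38.p6), and Myh11, Tnnt3, Actg2, Myocd and Tagln are not listed there. A box was found in 7 of the 30 (23.3%), against 1.81% of the 27025 genes in the table. The 7 promoters are shown 5′ to 3′ in the direction of transcription, ending at the base before the start, with the box in capitals, because they differ in where the box lies and in how their genes behaved.
Acta1: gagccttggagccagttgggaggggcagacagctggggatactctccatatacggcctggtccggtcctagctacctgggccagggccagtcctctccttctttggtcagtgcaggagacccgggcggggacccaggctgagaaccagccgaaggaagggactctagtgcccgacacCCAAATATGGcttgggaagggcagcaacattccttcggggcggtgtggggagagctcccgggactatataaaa
Actc1: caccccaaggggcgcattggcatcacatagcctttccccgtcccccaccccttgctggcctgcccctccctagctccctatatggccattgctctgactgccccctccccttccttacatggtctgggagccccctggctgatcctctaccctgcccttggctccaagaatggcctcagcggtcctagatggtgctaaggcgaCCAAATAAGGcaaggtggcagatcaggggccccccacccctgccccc
Cnn2: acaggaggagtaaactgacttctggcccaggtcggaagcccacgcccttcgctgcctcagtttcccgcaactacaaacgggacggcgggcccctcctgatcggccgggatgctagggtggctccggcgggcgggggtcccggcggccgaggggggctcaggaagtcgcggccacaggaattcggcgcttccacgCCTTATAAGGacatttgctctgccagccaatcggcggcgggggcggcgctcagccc
Myl6: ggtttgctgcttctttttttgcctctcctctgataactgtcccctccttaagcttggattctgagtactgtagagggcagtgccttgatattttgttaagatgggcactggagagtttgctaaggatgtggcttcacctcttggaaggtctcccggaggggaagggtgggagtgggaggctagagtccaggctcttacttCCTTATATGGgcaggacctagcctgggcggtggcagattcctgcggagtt
Myl9: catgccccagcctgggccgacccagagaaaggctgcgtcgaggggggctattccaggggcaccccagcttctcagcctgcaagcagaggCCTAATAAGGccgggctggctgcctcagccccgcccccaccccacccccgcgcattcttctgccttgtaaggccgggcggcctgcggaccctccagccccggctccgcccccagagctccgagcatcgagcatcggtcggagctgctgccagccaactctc
Srf: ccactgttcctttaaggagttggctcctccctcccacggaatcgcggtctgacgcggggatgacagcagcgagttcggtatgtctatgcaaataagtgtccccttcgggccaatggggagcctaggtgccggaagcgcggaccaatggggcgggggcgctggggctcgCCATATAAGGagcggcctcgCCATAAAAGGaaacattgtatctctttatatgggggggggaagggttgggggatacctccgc
Vcl: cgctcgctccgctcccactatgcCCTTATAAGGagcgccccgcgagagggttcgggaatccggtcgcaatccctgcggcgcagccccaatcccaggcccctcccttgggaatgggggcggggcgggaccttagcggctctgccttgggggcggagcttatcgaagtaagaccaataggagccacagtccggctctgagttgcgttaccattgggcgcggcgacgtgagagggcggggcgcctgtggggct
The box began 73 bases before the start in Acta1 (chr8:123894776-123895025, minus strand), the skeletal muscle actin gene, and 47 bases before it in Actc1 (chr2:114052876-114053125, minus strand), the cardiac actin gene. It lay 56 bases before the start in Cnn2 (chr10:79988350-79988599, plus strand) and 50 bases before it in Myl6 (chr10:128493010-128493259, minus strand). It lay farther out in Myl9, at 161 bases (chr2:156775214-156775463, plus strand), and in Vcl, at 227 bases (chr14:20929148-20929397, plus strand). Srf itself carried 2 boxes, at 82 and 62 bases (chr17:46556163-46556412, minus strand). A match of letters describes the sequence and is not a measured binding site, and the other 23 genes simply lack these letters in this window.

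Replicate 2 had far more signal from the contractile genes than replicate 1, in all 3 groups. Of the 35 genes, 28 were higher in replicate 2, 3 were lower and 4 did not pass the test (limma with group as a covariate, Benjamini-Hochberg adjusted p under 0.05 over 16044 genes). Over all genes tested, 34.4% were higher and 25.7% lower. The median difference, replicate 2 minus replicate 1, was 1.23 on the log2 scale over the 35 genes and 0.11 over all genes. At least 4-fold higher were 12 of the 35, against 4.87% of all genes, and at least 2-fold higher were 18, against 12.0%. Tnnt3 is counted among the 28, the 12 and the 18 by a fitted value that rests on dim signals, and it entered the test through replicate 2 alone. On 30 of the genes, Tnnt3 with its dim signals among them, every array of replicate 2 exceeded every array of replicate 1. On 3 every array of replicate 2 was below, and on 2, Synpo2 and Zyx, the arrays overlapped. Among all genes the arrays did not overlap in the higher direction for 41.1% and in the lower direction for 29.5%.

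**Figure D1:**
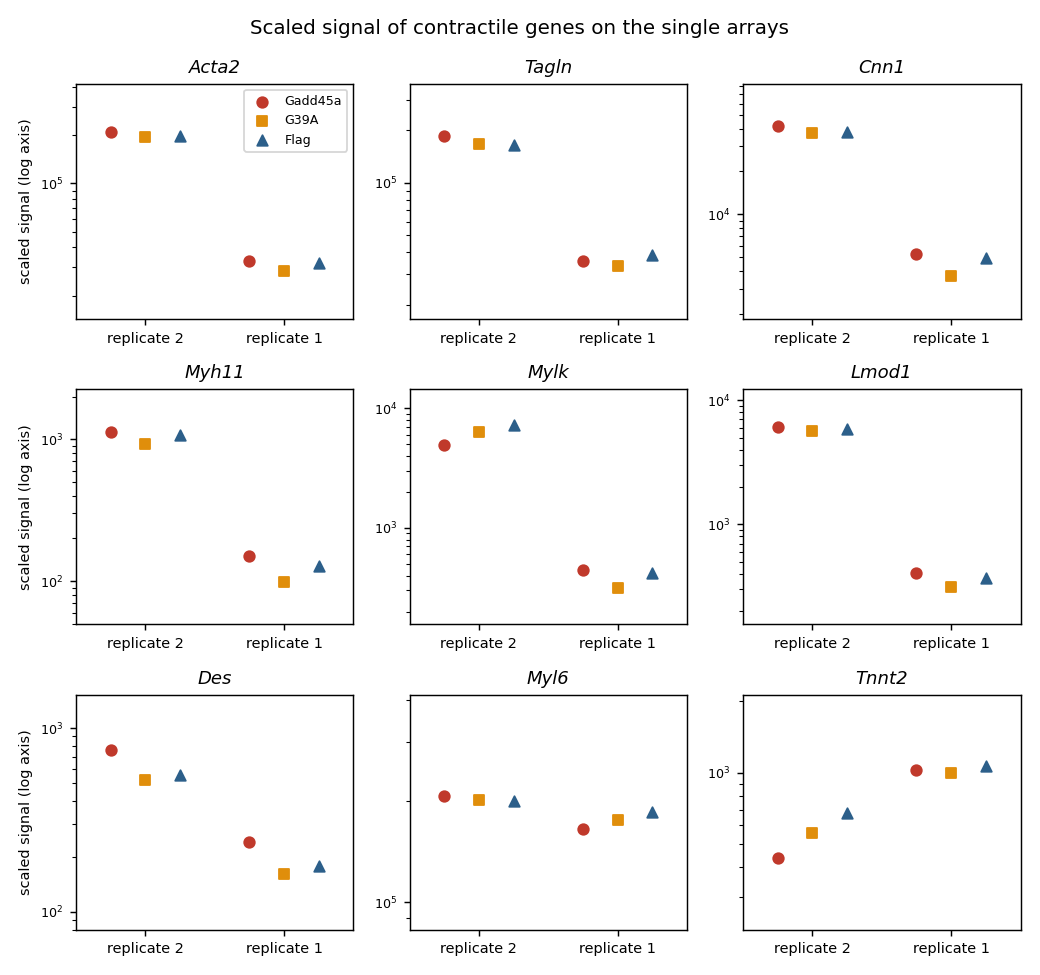
Scaled signal (log axis) of 9 contractile genes on each of the 6 arrays, with replicate 2 on the left and replicate 1 on the right of each panel. Each point is 1 array and colours mark Gadd45a, G39A and Flag. In 7 panels all replicate 2 points lie above all replicate 1 points by a wide margin, Myl6 differs little, and Tnnt2 runs the other way.

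Markers of other cells moved between the replicate numbers too, and their part in these results was not tested. Of 10 fibroblast markers, 8 were higher in replicate 2 and 0 lower, and their summed signal was 967483 to 1004510.0 in replicate 2 against 602405 to 683862 in replicate 1. Without S100a4, which added most to them on 5 of the 6 arrays, the sums were 686973 to 731387 in replicate 2 and 351746 to 419125 in replicate 1. Pdgfra was 27.6-fold higher, Col3a1 8.06-fold and Thy1 6.37-fold. The median of the 10 fibroblast markers was 2.21 (log2), above the 1.23 of the contractile genes. Of 7 epithelial markers tested, 0 were higher and 5 lower, with sums of 1801 to 3097 in replicate 2 and 5372 to 5828 in replicate 1, or 1666 to 2911 and 3063 to 3197 without Krt8, which added most to the replicate 1 sums. The 3 of smallest p, Epcam, Ocln and Cdh1, were all lower, and the median of the 7 was -3.75 (log2). Of the 9 listed, 3 were well above background on all arrays, so that median and the 5 lower can rest on dim signals. Cldn4 and Esrp1 were not well above background on any array. The 4 tested pluripotency markers held 0 higher and 2 lower, with sums of 393 to 422 in replicate 2 and 4410.4 to 6073 in replicate 1, or 388 to 418 and 551 to 733 without Pou5f1. The 2 lower were Pou5f1, which entered the test through replicate 1 alone, and Zfp42. Of the 10 pluripotency markers on the array, 2 were well above background on all arrays, so these counts can rest on dim signals. Esrrb, Tdgf1, Utf1 and Lin28a were not well above background on any array.

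Blood and vessel markers gave sums that depended on a single gene. Macrophage markers had 4 higher and 2 lower of 6, with sums of 5008 to 8538 in replicate 2 and 1575 to 1644 in replicate 1. Lyz2, lysozyme, made up most of the replicate 2 sum, and without it the sums were 556 to 718 in replicate 2 and 804 to 848 in replicate 1. Csf1r and Lyz2 were among the 4 higher. Itgam, an integrin of myeloid cells, was at least 14.9-fold brighter in replicate 1, and Ptprc was not well above background on any array. Endothelial markers had 2 higher and 1 lower of 5, with sums of 870.5 to 1462 in replicate 2 and 1033 to 1047 in replicate 1, or 356 to 440.05 and 857 to 942 without Emcn, a sialomucin gene. Erg and Emcn were the 2 higher and Tek the 1 lower. Pecam1 and Cdh5 were not well above background on any array.

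Both smooth muscle actins were higher in replicate 2. Acta2, the alpha actin of vascular smooth muscle and of activated fibroblasts, had 208891, 194546 and 197661 on the Gadd45a, G39A and Flag arrays of replicate 2, against 32863, 28667 and 31876 on those of replicate 1. The 2 sets of arrays were far apart and the groups within each differed little. Acta2 was thus 6.44-fold higher in replicate 2 (log2 difference 2.69 ± 0.08, SE, n = 3 arrays each, limma adjusted p = 7.55e-05). Its probe lies on chromosome 19 at 34316060 to 34316119 of mouse build mm9, at base 1278 of the transcript. Actg2, the enteric gamma actin, had 12229, 11434 and 11593 in replicate 2 and 6122, 7761 and 6248 in replicate 1, a smaller difference of 0.82 ± 0.12 (limma adjusted p = 0.0046).

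Both actins of striated muscle rose. Acta1, of skeletal muscle, had 4171, 3369 and 3644 on the Gadd45a, G39A and Flag arrays of replicate 2, against 527, 433 and 458 on those of replicate 1, and was 7.89-fold higher (limma adjusted p = 6.22e-05). Actc1, of the heart, had 16355, 14156 and 13965 in replicate 2 and 1975, 2104 and 1799 in replicate 1, and was 7.56-fold higher (limma adjusted p = 8.77e-05). In both genes the 3 groups gave nearly the same difference, from 2.96 to 2.99 in Acta1 and from 2.75 to 3.05 in Actc1. The 4 muscle actins are close in coding sequence, so a probe may also bind the transcript of another, and this was not tested.

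Of the 5 calponin and transgelin genes, 4 rose and 1 did not pass the test. Cnn1, the smooth muscle calponin that binds actin and damps myosin, had 41394, 36971 and 38133 in replicate 2 on the Gadd45a, G39A and Flag arrays, against 5252, 3674 and 4932 in replicate 1. It was 8.50-fold higher (3.09 ± 0.11, limma adjusted p = 1.06e-04), on chromosome 9 at 21913058 to 21913117. Tagln, which encodes SM22 alpha, an early marker of smooth muscle, had 184920.0, 167211 and 164363 in replicate 2 and 35809, 33238 and 38467 in replicate 1. It was 4.81-fold higher (2.26 ± 0.09, limma adjusted p = 1.41e-04), with its probe on chromosome 9 at 45738097 to 45738156. The more widely expressed calponins rose too, by 1.23 in Cnn2 and 0.75 in Cnn3 (log2). Tagln2, the transgelin of many cell types, differed by 0.20, from 0.14 to 0.27 over the groups, with a limma adjusted p of 0.084.

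All 4 filament-coating genes rose. Tpm2, the beta tropomyosin, had 37717, 29390.1 and 42462 on the Gadd45a, G39A and Flag arrays of replicate 2, against 7364, 6489 and 7777 in replicate 1, and was 5.02-fold higher (limma adjusted p = 1.27e-04). Tpm1, the alpha tropomyosin, was 2.97-fold higher and Cald1, caldesmon, 1.88-fold. Tpm4, a tropomyosin of non-muscle cells, was 1.43-fold higher (0.52 on the log2 scale, limma adjusted p = 0.015), a call lost under several alternatives. The difference was 0.21 after quantile normalization (adjusted p = 0.11) and 0.20 in the deposited value table (0.12). With scaling unchanged it was 0.52 with no filter on dim probes (0.067), 0.55 without an array of G39A (0.059) and 0.41 without an array of Gadd45a (0.052).

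Of the 6 genes of myosin chains and of their kinase, 5 rose and 1, Myl6, did not pass the test. Mylk, the kinase that activates smooth muscle myosin, had 4919, 6358 and 7236 on the Gadd45a, G39A and Flag arrays of replicate 2, against 443, 313 and 422 on those of replicate 1. It was 15.7-fold higher (3.97 ± 0.19, limma adjusted p = 2.01e-04), on chromosome 16 at 34995162 to 34995221. Myh11, the smooth muscle heavy chain and the strictest marker of that lineage in the set, had 1131, 927 and 1066 in replicate 2 and 152, 99.0 and 128 in replicate 1, and was 8.36-fold higher (3.06 ± 0.10, limma adjusted p = 8.37e-05). Its probe spans 14195223 to 14198147 on chromosome 16. Myl9, the regulatory light chain that Mylk phosphorylates, had 197001, 172094 and 191231 in replicate 2 and 36409, 34520.4 and 36288 in replicate 1, a 5.22-fold difference.

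Both non-muscle heavy chains rose. Myh10, myosin IIB, was 4.06-fold higher (2.02 on the log2 scale), while Myh9, myosin IIA, was 1.68-fold higher. A brighter probe of Myh10 lacked a value on the Flag array of replicate 2 and was left out. That probe gave 1.56 to 1.66 (log2) in the Gadd45a and G39A arrays. The place of Myh10 among the 12 genes at least 4-fold higher thus depends on the probe. Myl6, the essential light chain that smooth and non-muscle myosin share, had 207694, 201709 and 200812 in replicate 2, against 165413, 175166 and 186081 in replicate 1. It differed by 0.21 ± 0.09 (log2, limma adjusted p = 0.090). Myl6 carries a CArG box in the promoter shown above, as does Acta1, and these 2 genes mark the ends of the range, 0.21 to 2.98, among the 7 genes with a box. The median was 1.29 over the 7 genes with a box and 0.97 over the 23 without, which ranged from -0.91 to 4.03.

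The 3 genes of differentiated smooth muscle filaments all rose. Lmod1, leiomodin, which nucleates actin filaments in smooth muscle, had 6138, 5649.5 and 5911 on the Gadd45a, G39A and Flag arrays of replicate 2, against 406, 314 and 368 in replicate 1. This 16.4-fold difference (4.03 ± 0.09, limma adjusted p = 5.71e-05) had the highest fitted value of the 35, and the probe lies on chromosome 1 at 137263311 to 137263369. Des, desmin, the intermediate filament of muscle, had 759.7, 523 and 554 in replicate 2 and 239, 159.9 and 179 in replicate 1, and was 3.18-fold higher. Smtn, smoothelin, a marker of contractile smooth muscle, was 2.40-fold higher.

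Cross-linkers and adhesion proteins had a median of 0.91 on the log2 scale over 8 genes. Of these, 6 rose, 1 fell and 1 did not pass. Actn1, alpha-actinin of stress fibres, was 2.55-fold higher, Vcl, vinculin of focal adhesions, 2.44-fold, Pdlim7, a stress fibre adaptor, 1.97-fold, Csrp1, a LIM protein of smooth muscle, 1.95-fold and Flna, filamin A, 1.82-fold. Synpo2, an actin-bundling protein, had 438, 326 and 337 on the Gadd45a, G39A and Flag arrays of replicate 2, against 342, 213 and 221 in replicate 1. The array of Gadd45a in replicate 1 exceeded 2 arrays of replicate 2, and without the G39A arrays the limma adjusted p of Synpo2 was 0.053, against 0.0091 with all arrays. Actn4, the alpha-actinin of non-muscle cells, had 35387, 33954 and 33763 in replicate 2 and 40897, 46218 and 43889 in replicate 1. It fell by 0.34 on the log2 scale (limma adjusted p = 0.027), a call lost without either array of G39A (limma adjusted p = 0.12) or of Flag (0.10). Zyx, zyxin of focal adhesions, differed by 0.15 with a limma adjusted p of 0.32.

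Troponin T anchors the calcium switch of striated muscle and is not part of the smooth muscle apparatus, and its 3 genes did not move together. Tnnt3, the fast skeletal form, had 103, 120.4 and 134 in replicate 2 with its brightest probe, against 9.61, 14.4 and 5.68 in replicate 1. This probe was not well above background on any array of replicate 1. It was at least 5.16-fold higher in replicate 2. The bound is set against the lowest signal that counted as well above background on each replicate 1 array. The probe entered the test through replicate 2 alone and its fitted value rests on dim signals, so no p-value is given. Another probe of Tnnt3, well above background on 4 arrays, gave 2.42 (log2). Tnnt2, the cardiac form, had 437, 556 and 679 on the Gadd45a, G39A and Flag arrays of replicate 2, against 1026, 999 and 1065 in replicate 1, and fell by 0.91 on the log2 scale (limma adjusted p = 0.0055). Tnnt1, the slow skeletal form, fell by 0.41 (limma adjusted p = 0.033), and this call was lost after quantile normalization (adjusted p = 0.078), in the deposited value table (0.075) and without an array of Flag or G39A (0.11 each).

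Other striated muscle markers moved in both directions. Of 12 skeletal muscle markers tested, 5 were higher and 5 lower in replicate 2, with sums of 1093 to 1226 in replicate 2 and 10315 to 11526 in replicate 1. Myh1, a heavy chain of fast fibres, was at least 106-fold brighter in replicate 1, and Myh2, another such chain, named here after its values were seen, at least 149-fold. Myh8, the perinatal heavy chain, had 17.4, 15.3 and 27.4 on the Gadd45a, G39A and Flag arrays of replicate 2, where 1 of the 3 was well above background, against 4261, 3831 and 4177 in replicate 1. Tnni2, fast skeletal troponin I, went the other way, with 295, 344 and 357 in replicate 2 and 54.4, 53.5 and 64.2 in replicate 1, a 5.79-fold difference (limma adjusted p = 1.06e-04). The regulators Myod1, Myog, Myf5 and Myf6, and also Ckm, Myh4 and Actn2, were not well above background on any array. Of 8 cardiac markers tested, 3 were higher and 2 lower, with sums of 1765 to 2104 in replicate 2 and 8320 to 10943 in replicate 1. Most of the replicate 1 sum was Nppb, the natriuretic peptide B gene, and without it the sums were 1601 to 1958 in replicate 2 and 1439.9 to 1916 in replicate 1. Nppb and Myl7 were the 2 lower, and Myl4 was among the 3 higher. The markers Nkx2-5, Mybpc3 and Myl2 were not well above background on any array. Their part in the troponin T values was not tested.

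Of the transcription factor gene Srf and its cofactor gene Myocd, Srf rose and Myocd did not pass the test. Srf had 3576, 3172 and 3126.5 on the Gadd45a, G39A and Flag arrays of replicate 2, against 2503, 2122 and 2630 in replicate 1. It was 1.36-fold higher (0.45 ± 0.10, limma adjusted p = 0.018), a call lost when an array of G39A (adjusted p = 0.087) or of Gadd45a (0.078) was left out. Myocd, which encodes myocardin, had 55.4, 78.6 and 103.5 in replicate 2 and 51.8, 45.1 and 43.6 in replicate 1. Its difference ran from 0.10 in the Gadd45a arrays to 1.25 in the Flag arrays, 0.71 ± 0.24 in the fit, with a limma adjusted p of 0.057, or 0.034 after quantile normalization and 0.011 without an array of Gadd45a.

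**Figure D2:**
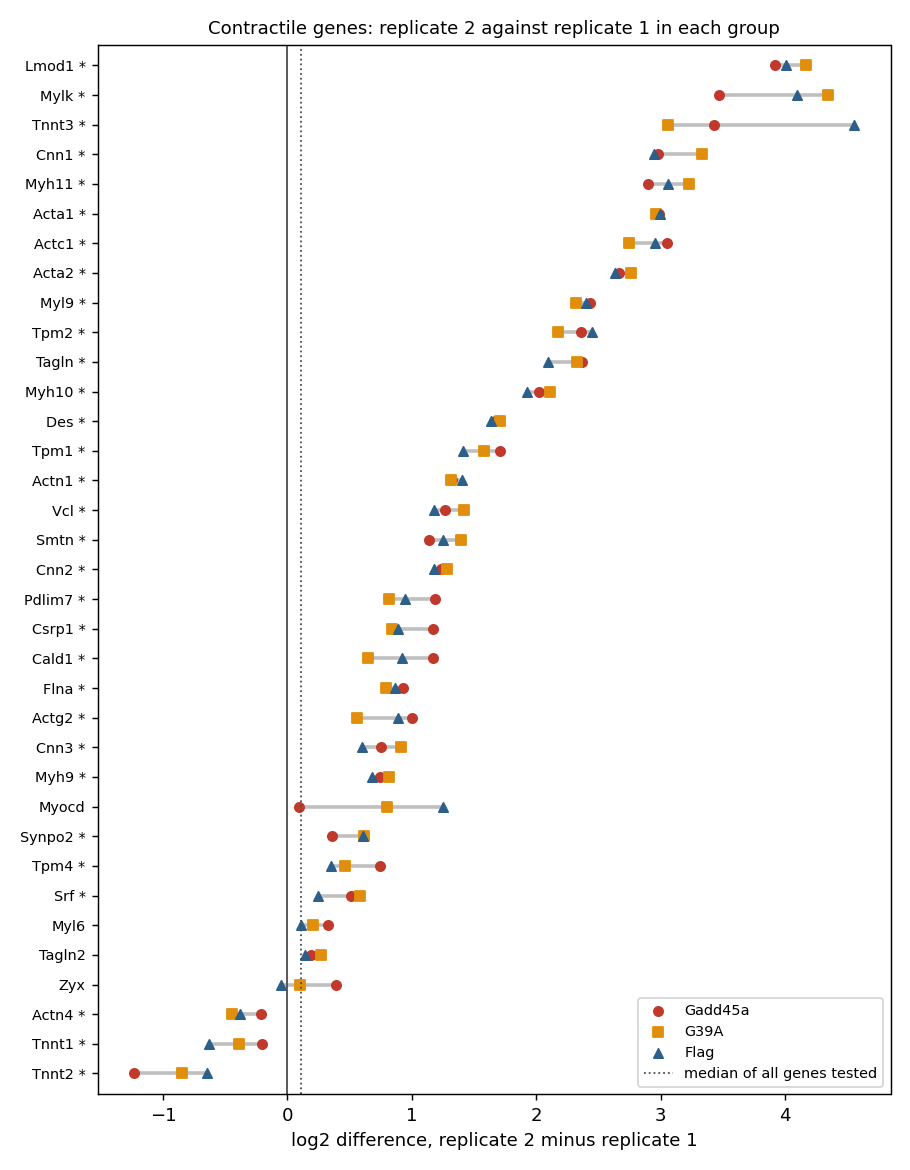
Log2 difference, replicate 2 minus replicate 1, of the 35 genes (rows), with a point for each of Gadd45a, G39A and Flag and a grey bar for their range. A star marks genes past the limma threshold, and the dotted line is the median of all genes tested (0.11). Most genes lie to the right with the 3 groups close together, whereas Tnnt3, dim in replicate 1, Mylk and Myocd spread widely.

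The difference varied little with the group. The range over Gadd45a, G39A and Flag was under 0.5 (log2) in 30 of the 35 genes, with a median of 0.27. This range was not counted over all genes. Arrays of the same replicate number deviated together over all genes tested between groups (correlations 0.911 to 0.915), so it is not shown to be particular to these genes.

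Several probes report on 12 of the genes with signal well above background on all arrays. No such pair of probes differed in sign, and in 10 genes the probes lay within 0.5 of each other on the log2 scale. The probes of Mylk lay within 0.03 of each other, and those of Tagln gave 2.26 and 2.53. Acta2 was an exception. Its 3 probes toward the 3′ end of the transcript, at bases 1278, 1641 and 2143, gave 2.69, 3.03 and 2.60, and the probe at base 335 gave 1.49. That probe had 51279.7, 47039.7 and 48019.7 in replicate 2, against 18884, 17576 and 15811 in replicate 1. Pdlim7 was the other exception, with 0.94 and 0.98 for the probes designed on 1 of its transcripts and 0.24 and 0.23 for those designed on another, so its brightest probe gave the highest value.

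**Figure D3:**
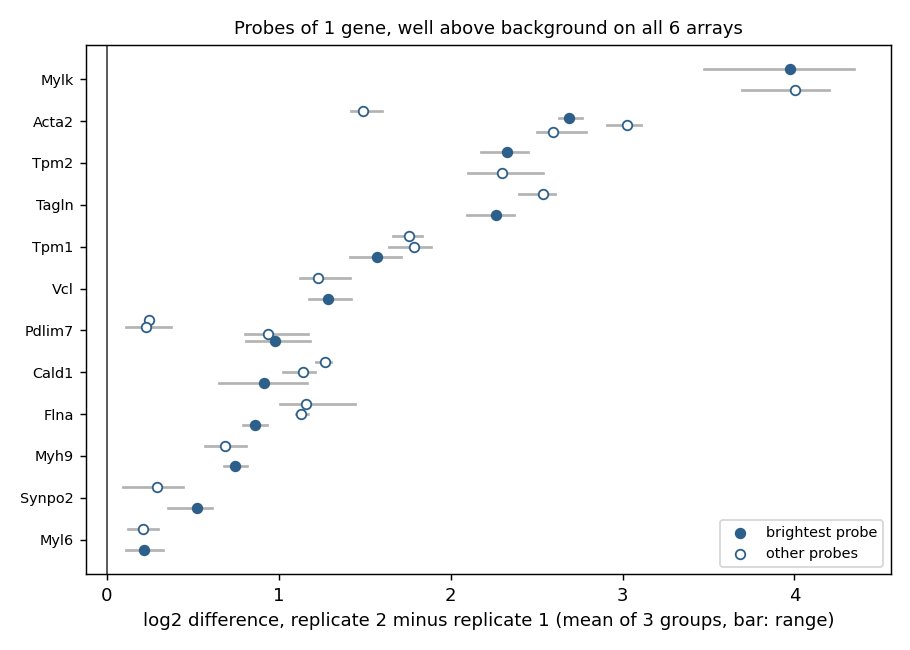
Log2 difference, replicate 2 minus replicate 1, for each probe (point: mean of 3 groups, bar: range) of the 12 genes with several probes well above background on all 6 arrays, ordered within a gene by position along the transcript. Probes of a gene lie together except in Acta2 (1.49 to 3.03) and Pdlim7 (0.23 to 0.98).

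Genes around the contractile set were counted in the same fit. Of 25 other genes of smooth muscle and mural cells, 19 rose and 5 fell, with a median of 1.43. Kcnmb1 and Hspb7, dim on arrays of replicate 1, are counted among the 19 and in that median. Pgm5, which encodes aciculin, a protein of muscle adhesions, was 19.4-fold higher. Kcnmb1, the beta subunit of the large calcium-activated potassium channel of smooth muscle, was well above background in replicate 2 alone and at least 1.91-fold higher. Hspb7, a small heat shock protein of muscle, had 174, 134 and 153 on the Gadd45a, G39A and Flag arrays of replicate 2, against 26.5, 18.6 and 21.9 in replicate 1, where 1 of the 3 arrays was well above background, so no fold is given. Of 27 other actin filament genes, 15 rose and 2 fell, with a median of 0.31, led by Nexn, nexilin, at 7.13-fold, Tln2, a talin, at 2.26-fold and Flnc, muscle filamin, at 2.07-fold.

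Regulators did not share one direction. Of 21 SRF cofactors and regulators, 8 rose and 10 fell, with a median of -0.27. Fhl2, a LIM cofactor, was 5.29-fold higher, while Hey1 fell by 2.21 on the log2 scale and Hey2 was at least 42.4-fold brighter in replicate 1; both Hey genes encode repressors downstream of Notch. The MRTF genes, chosen here after their values were seen, were 2.40-fold higher for Mrtfa and 1.60-fold higher for Mrtfb (limma adjusted p = 4.83e-04 and 0.021). Of 18 TGF-beta and YAP genes, 9 rose and 4 fell. Tgfbi was 10.6-fold higher and the ligand gene Tgfb3 5.52-fold higher, while Edn1, which encodes the constrictor endothelin-1, fell by 2.61 on the log2 scale.

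**Figure D4:**
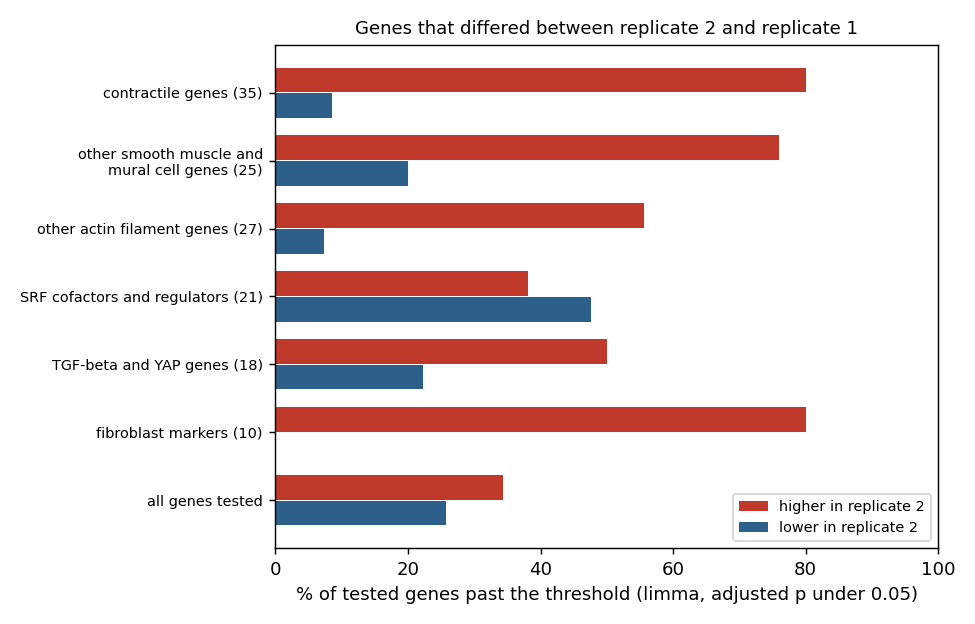
Share of tested genes (x axis, percent; number tested in brackets) that were higher (red) or lower (blue) in replicate 2 than in replicate 1 by limma, for the contractile genes, 5 other lists and all genes tested. The contractile genes, Tnnt3 among them, have 80.0% higher and all genes 34.4%. Of the 10 fibroblast markers 8 were higher, and of the 25 other smooth muscle and mural cell genes 19. The SRF cofactors and regulators have more genes lower than higher.

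The comparisons of Gadd45a and its mutant with Flag gave small differences in the contractile genes. In none of the 3 comparisons of groups did any of the 35 genes, or any of the 15650 genes tested, pass the threshold (limma, 0 genes, 0.0%). Blocking on the replicate number gave 0 genes again (0.0%) in each. At an unadjusted p under 0.05, limma without the block counted 97 genes for Gadd45a against Flag, 82 for G39A against Flag and 114 for Gadd45a against G39A, and 0 of the 35 in each. In the blocked fit, 2 of the 35 genes reached that level for Gadd45a against Flag, against 8.63% of all genes (1351). For G39A against Flag it was 1 of the 35, against 2.87% (449), and for Gadd45a against G39A 4 of the 35, against 8.89% (1392). The comparisons share arrays, so they are not independent of one another.

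Between Gadd45a and Flag, 16 of the 35 genes were higher in Gadd45a in both replicate numbers, 3 were lower in both and 16 went opposite ways, where 23.4% of all genes were higher in both and 33.2% lower in both. The median difference of the 35 was 0.04 on the log2 scale. Des had 759.7 and 239 on the Gadd45a arrays of replicates 2 and 1, against 554 and 179 on the Flag arrays, which is 0.46 and 0.42 (log2) within the replicate numbers. Synpo2 had 438 and 342 in Gadd45a against 337 and 221 in Flag, or 0.38 and 0.63. These are the 2 with an unadjusted p under 0.05 in the blocked fit, where their limma adjusted p-values were 0.45 and 0.47.

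Other genes gave values of either sign. Acta2 differed from Flag by 0.08 and 0.04 in replicates 2 and 1, Cnn1 by 0.12 and 0.09, and Tagln by 0.17 and -0.10. Mylk had 4919 and 443 in Gadd45a against 7236 and 422 in Flag, so it was lower in replicate 2 (-0.56) and little different in replicate 1 (0.07). Its other bright probe gave -0.46 and 0.05. Tnnt2 differed by -0.64 and -0.05, and Myocd by -0.90 and 0.25.

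Between G39A and Flag, 3 genes were higher in G39A in both replicate numbers, 13 lower in both and 19 opposite, against 19.3% and 28.6% of all genes, and the median was -0.05. Tpm2 had 29390.1 and 6489 on the G39A arrays of replicates 2 and 1, against 42462 and 7777 on the Flag arrays, or -0.53 and -0.26. It was the 1 gene with an unadjusted p under 0.05 in the blocked fit, with a limma adjusted p of 0.99. Myh11 differed by -0.20 and -0.36, and Cnn1 by -0.04 and -0.42. In replicate 1 these differences are also slide 2 against slide 1, and group and slide cannot be told apart there. The replicate block does not separate them.

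Between Gadd45a and G39A, 20 genes were higher in Gadd45a in both replicate numbers, 1 lower in both and 14 opposite, against 30.8% and 29.3% of all genes, and the median was 0.10. Des had 759.7 and 239 in Gadd45a against 523 and 159.9 in G39A, or 0.54 and 0.58, and Synpo2 had 438 and 342 against 326 and 213, or 0.42 and 0.68. Myh11 had 1131 and 152 in Gadd45a against 927 and 99.0 in G39A, or 0.29 and 0.61, and Acta1 differed by 0.31 and 0.28. These 4 genes had an unadjusted p under 0.05 in the blocked fit. Their limma adjusted p-values there were 0.513 to 0.525, the lowest being that of Des. In replicate 1 the differences between Gadd45a and G39A are also slide 1 against slide 2, and the replicate block does not separate them.

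**Figure D5:**
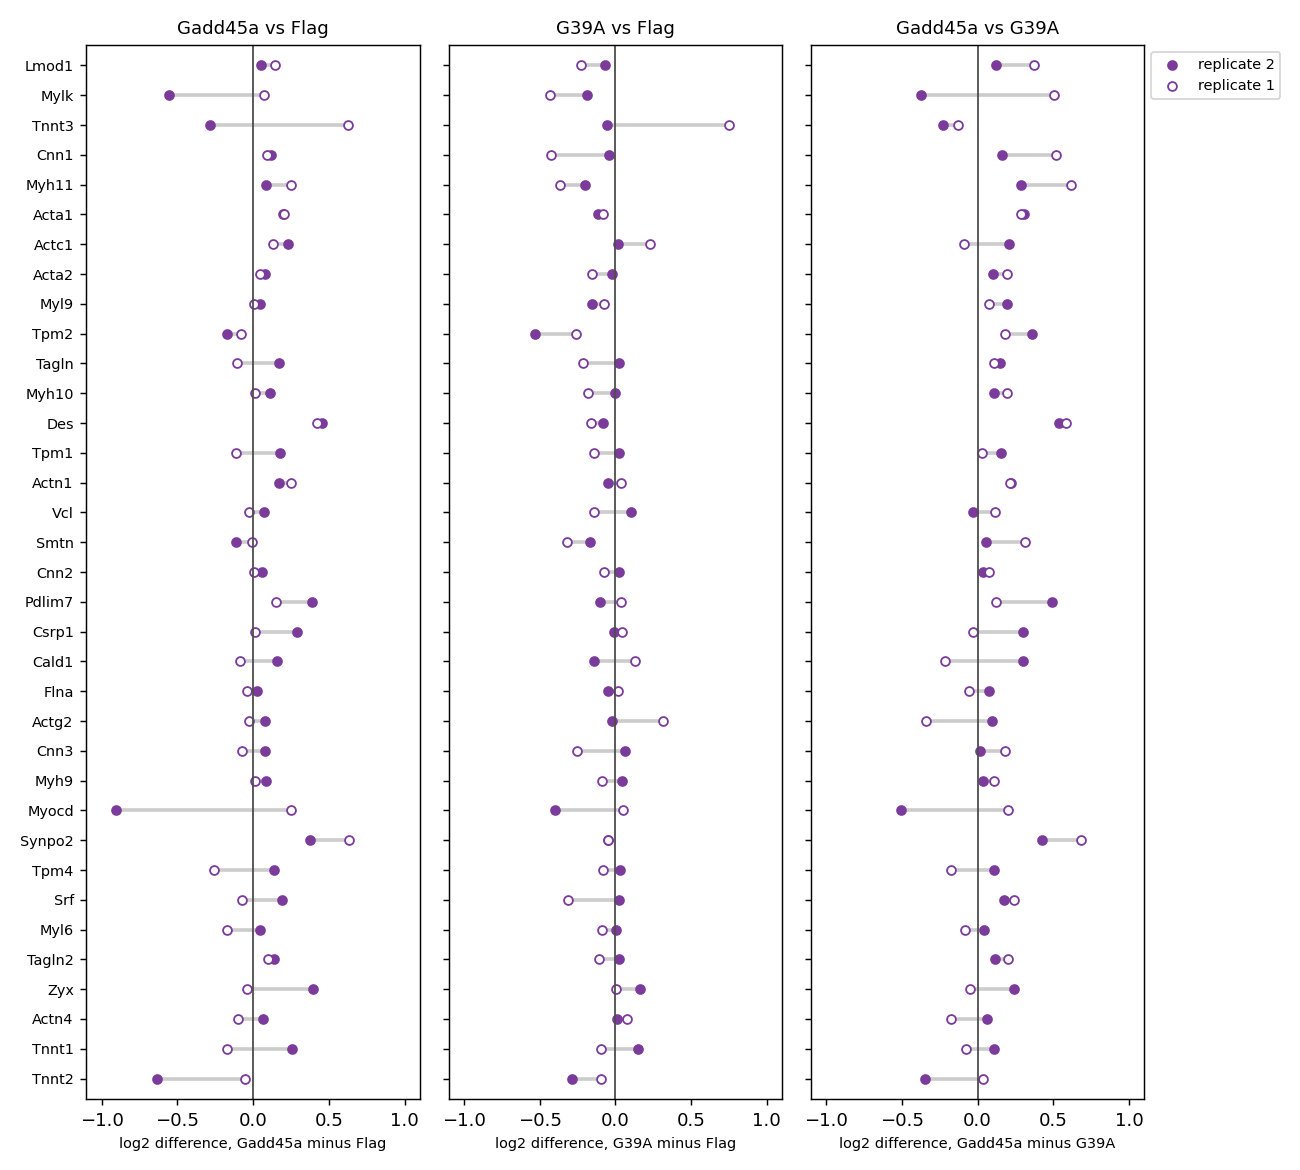
Log2 differences of the 35 genes within replicate 2 (filled) and replicate 1 (open), in 3 panels for Gadd45a minus Flag, G39A minus Flag and Gadd45a minus G39A. Genes are ordered by their difference between replicate numbers. Points lie on both sides of 0, most of them within 0.5, with Des and Synpo2 on the right in both panels that include Gadd45a.

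None of the companion and marker lists described above had a gene past the limma threshold in any comparison of groups, with or without the block. The number of arrays limits these comparisons. Over the 35 genes, the standard error of a group difference had a median of 0.73 on the log2 scale without the block, since it then holds the difference between the replicate numbers, and 0.11 with it.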

How the data were processed

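The authors extracted each spot's intensity with Agilent Feature Extraction, per the file headers (version 10.7 per the submitters' processing notes), background-subtracted and detrended within each array, with surrogate values for dim spots. The deposited 0 or 1 marks give spots well above background, saturated or outlying. The deposited value table holds log2 values with column medians of 6.17 each, not centred by gene. Each column correlated best with its own array's scanner intensity (lowest r 0.9989), so a higher value is a higher signal. How the authors made it is not given in the sources used here.

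Control spots and marked spots were left out, spots of a probe averaged, and log2 signals centred on the 75th percentile of their array. A RefSeq table (GRCm38.p6) named 27668 of the 41174 probes by accession, and the files named the rest. Probe coordinates are the files' own, of build mm9. A gene was tested where a probe exceeded background clearly on both arrays of any group (group comparisons, where another probe of Tnnt3 was used) or on all 3 arrays of a replicate number. For Myh10 a brighter probe was left out because its spot was marked on 1 array. Tests used limma 3.58.1 in R 4.3 with Benjamini-Hochberg adjustment over the whole table, and the scripts were tested on simulated data. The members, lists and naming rule (all 35 genes, and up to 3 called genes of smallest p per list) were chosen with earlier results of these data known. The result of 1 further list is not reported here.

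Arrays of the same replicate number deviated together (correlations of deviations from the group means 0.911 to 0.915 in all 3 pairs of groups), so the numbers were taken to pair the samples, and the fit with the number as a block was run beside the main one.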

Additional observations from a re-analysis of the deposited data

How the results depend on the processing

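Between the replicate numbers, the median difference of the 35 genes was 1.06 after quantile normalization, 1.03 with normexp background correction, 1.07 in the deposited value table and 1.11 with genes well above background on all arrays, against 1.23. Leaving out 1 array gave medians of 1.19 to 1.26, 26 to 30 of the 35 genes called (31 with all) and 7272 to 7810 genes in all. With no filter on dim probes 27 of the 35 were called. No call changed direction. Actn4, Tnnt1, Tpm4, Srf and Synpo2 lost their calls, and Myocd, Myl6 and Tagln2 gained one, under some of these settings. Leaving out 1 array removes its group from this comparison. The slide as a random block could not be fitted there.

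Between the groups, the replicate block changed no call (0 genes with and without it). With the slide as a random block 19 genes passed for Gadd45a against Flag, 3 for G39A against Flag and 7 for Gadd45a against G39A. Combinations of the replicate block with quantile normalization or with the deposited value table, added after seeing the data, gave 1 gene each for Gadd45a against G39A. The median difference for Gadd45a against G39A was 0.098 with quantile normalization, alone and with the replicate block, 0.081 with normexp, 0.102 in the value table, alone and with the block, 0.111 with genes well above background on all arrays, 0.116 with the mean of all probes and 0.117 with the slide block. Leaving out 1 array gave -0.49 to 0.68 for Gadd45a against Flag, -0.66 to 0.57 for G39A against Flag and -0.46 to 0.75 for Gadd45a against G39A, since each group then rests partly on a single replicate number. The cause of the other changes was not tested. Dim signals limit Tnnt3 and Myocd.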

Other observations

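A further probe of Myocd, at base 2848 of its transcript, was well above background on only 2 arrays. It had 309 on the G39A array of replicate 1, against 5.05 to 20.2 on the other 5 arrays, while the probe used above had 45.1 on that G39A array.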
